A study of Homo sapiens with 12 samples.

Results

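The 30 genes described here encode enzymes that make sterols and fatty acids, and all 30 were measured among the 25275 genes with a usable probe. They were chosen by function and fall into 3 step groups. The early mevalonate group of 8 genes (ACAT2, HMGCS1, MVK, PMVK, MVD, IDI1, FDPS and GGPS1) builds isoprenoid units from acetyl-CoA. The late sterol group of 11 (FDFT1, SQLE, LSS, CYP51A1, TM7SF2, MSMO1, NSDHL, HSD17B7, EBP, SC5D and DHCR7) carries these on to cholesterol. The fatty acid group of 11 (ACLY, ACACA, FASN, SCD, ELOVL5, ELOVL6, FADS1, FADS2, ACSS2, ACSL3 and LPIN1) supplies, lengthens, desaturates, activates and esterifies fatty acids.

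Transcription of these enzymes is governed by the sterol regulatory element binding proteins (SREBPs), membrane-bound factors that are carried by SCAP from the endoplasmic reticulum to the Golgi, cut there by the proteases encoded by MBTPS1 and MBTPS2, and held back by the INSIG proteins when sterols are plentiful. SREBF2 chiefly drives the sterol genes and SREBF1 the fatty acid genes, and many promoters of the family pair the SREBP site with CCAAT and GC-rich boxes that bind NF-Y and Sp1. In the developing cerebellum, where medulloblastoma (MB) arises, sterols also act in hedgehog signalling, since Smoothened is activated by cholesterol.

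The samples were cultures of Daoy, an established line derived from a single human MB, kept in astrocyte conditioned medium (ACM) from primary neonatal rat astrocytes or in the control medium DMEM. The cells spent 1 passage (P1) or 3 passages (P3) of 48 h in the medium, which gave 4 groups of 3 independent experiments: P1 ACM, P1 DMEM, P3 ACM and P3 DMEM. No gene was altered in any group, and both media rest on the same line, so all values describe 1 tumour line and medium from astrocytes of another species. Each RNA was hybridised to 1 single-colour Agilent expression array, on which each probe is measured by its background-corrected intensity. A level below is log2 of that intensity after the 75th percentile of its array, on the same scale, was subtracted, so that 1 unit is a factor of 2. Levels are compared between arrays for the same probe and not between probes. The summed level of a marker list, used below, adds its probes before log2 is taken, so its brightest probe weighs most.

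Features of the whole series bear on every value below. The 12 arrays lay on 3 slides of 4. Slide 1 carried the 3 P1 ACM arrays beside P3 ACM replicate 1, slide 2 the other two P3 ACM arrays beside P1 DMEM replicates 1 and 2, and slide 3 the remaining array of P1 DMEM, replicate 3, beside the 3 P3 DMEM arrays. No slide therefore held ACM and DMEM arrays of 1 passage. The share of probes well above background was 90.9% to 94.6% on slide 1, 74.2% to 80.2% on slide 2 and 88.1% to 91.0% on slide 3. A lower RNA level per cell and fewer cells with the RNA cannot be told apart in such extracts. Of 8 genes listed as markers of the Daoy line, 7 were well above background on all 12 arrays and ZIC1 was not. The summed level of this list spanned 6.73 to 7.08 in ACM and 6.94 to 7.72 in DMEM. Astrocyte markers were in this state for 4 of 8 genes, GFAP not among them, neuron markers for 3 of 6 and microglia markers for 3 of the 5 on the array. The summed level of the astrocyte list spanned 1.73 to 2.49 in ACM and 1.99 to 2.45 in DMEM, that of the neuron list 3.40 to 3.90 in ACM and 3.58 to 4.84 in DMEM, and that of the microglia list 3.79 to 4.58 in ACM and 3.29 to 4.12 in DMEM. At P1, 4 of 7 astrocyte, 2 of 6 neuron and 3 of 5 microglia genes tested passed an unadjusted p of 0.05 upwards in ACM, when 23.1% of all genes did, and 1 astrocyte and 1 neuron gene passed downwards (0.906% of all genes). At P3, 4 of 5 microglia genes passed upwards (3.84% of all genes), while 2 astrocyte, 1 neuron and 1 Daoy gene passed downwards (3.43%). On slide 2, 1 astrocyte, 1 neuron and 1 Daoy gene passed downwards (3.91% of all genes) and 0 of these lists upwards (3.55%). Some of these markers had low levels that differed by slide within ACM. GJB6 of the astrocyte list had -4.29 to -4.02 on slide 1, but -7.56 and -6.52 in P3 ACM on slide 2. CX3CR1 of the microglia list had -4.50 to -4.24 and -7.08 and -6.60. Neither was well above background on all 12 arrays. The part of these markers in the results was not tested.

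The labels of the arrays are in doubt. Besides the scanner output, which names the sample of each array and is used here, the authors deposited a table of normalized values, and each of its 12 columns ranks as the array of another sample (Spearman rho across probes of 0.999986 or more in each case). The table's P1 ACM replicates 1, 2 and 3 rank as the arrays labelled P1 DMEM replicate 2, P1 DMEM replicate 1 and P3 ACM replicate 3. Its P3 ACM columns rank as P3 ACM replicate 2, P3 DMEM replicate 3 and P3 DMEM replicate 2. Its P1 DMEM columns rank as P3 DMEM replicate 1, P1 DMEM replicate 3 and P3 ACM replicate 1, and its P3 DMEM columns as P1 ACM replicates 3, 2 and 1. The data used here do not settle which set of labels holds. Every direction below is that of the scanner labels, and the table's labels turn most of them round, as given with each main comparison. Apart from slide 3, counts by the table's labels are given without the share of all genes and cannot be set against it.

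The promoters of 3 members that differed strongly in the comparison on slide 2 described later are shown as examples, and their motifs were known when they were picked. IDI1, DHCR7 and HMGCS1 differed more there than MVK and are not shown, and the promoter of IDI1 holds neither motif marked below. A link between motif and difference was not tested. All of them hold CCAAT, and those of MVK and MSMO1 also hold the core of the SREBP site. MVK encodes mevalonate kinase, MSMO1 a methylsterol oxidase and LSS lanosterol synthase, which closes the sterol ring system. The sequences are RefSeq promoters of GRCh38.p14, written 5′ to 3′ on the strand of the gene from 250 bases before the start of transcription to 50 bases after it. They span chr12:109573544-109573843 on the plus strand (MVK), chr4:165327419-165327718 on the plus strand (MSMO1) and chr21:46228725-46229024 on the minus strand (LSS). Capitals mark TCACNCCA, the core of a sterol regulatory element, and CCAAT, each on either strand, so that ATTGG is CCAAT read on the other strand.
MVK: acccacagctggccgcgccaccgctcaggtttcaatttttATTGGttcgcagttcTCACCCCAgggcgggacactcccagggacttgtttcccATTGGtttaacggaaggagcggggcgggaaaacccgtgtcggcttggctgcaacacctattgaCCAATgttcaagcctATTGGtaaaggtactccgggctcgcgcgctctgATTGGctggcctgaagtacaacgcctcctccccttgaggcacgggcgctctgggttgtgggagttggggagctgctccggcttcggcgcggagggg
MSMO1: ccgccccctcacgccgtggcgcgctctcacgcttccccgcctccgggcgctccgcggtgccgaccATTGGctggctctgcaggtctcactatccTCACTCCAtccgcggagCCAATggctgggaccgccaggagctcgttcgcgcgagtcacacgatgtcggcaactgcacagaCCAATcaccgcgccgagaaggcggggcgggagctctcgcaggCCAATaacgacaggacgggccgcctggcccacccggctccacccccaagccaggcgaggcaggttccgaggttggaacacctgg
LSS: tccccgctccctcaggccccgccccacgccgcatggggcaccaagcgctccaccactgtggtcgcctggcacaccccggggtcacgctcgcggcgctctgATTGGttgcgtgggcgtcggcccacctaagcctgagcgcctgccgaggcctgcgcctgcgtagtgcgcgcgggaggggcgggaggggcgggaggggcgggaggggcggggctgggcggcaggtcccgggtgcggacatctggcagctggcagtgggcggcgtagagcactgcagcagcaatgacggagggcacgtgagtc

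MVK and MSMO1 were the 2 members with the core TCACNCCA, of 26 members with a promoter in the table (7.69%, against 3.95% of all 35116 promoters). Counted from the start, the core match began at position -195 in MVK and at position -156 in MSMO1. CCAAT was present in 17 of 26 members (65.4%, against 34.6% of all promoters), among them 8 of 9 late sterol genes, 4 of 7 early mevalonate genes and 5 of 10 fatty acid genes. The GC box CCGCCC stood in 22 of 26 (84.6%, against 45% of all). The longer consensus of the element, the core with 1 more base at each end, was in 0 of 26 members and in 0.154% of all promoters. Entries for ACAT2, FDFT1, SQLE and FASN were missing. All motifs were searched on both strands, and a match describes these letters only.

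All 30 members were well above background on all 12 arrays. The range of a member's level over the 12 arrays was 0.46 for the steadiest, 1.20 for the median member and 3.09 for FADS2, the fatty acid desaturase that acts first on the essential fatty acids. The highest level of a member fell in P1 DMEM replicate 1 for 16 of 30 and in P3 DMEM replicate 2 for 11. The lowest level fell most often in P3 ACM replicate 1 (11 of 30). By step group, 8 of 11 late sterol, 3 of 8 early mevalonate and 5 of 11 fatty acid genes peaked in P1 DMEM replicate 1, and 1, 5 and 5 of them in P3 DMEM replicate 2. The difference between the step groups was not tested. By the table's labels these arrays are P1 ACM replicate 2, P3 ACM replicate 3 and P1 DMEM replicate 3, in this order.

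**Figure D1:**
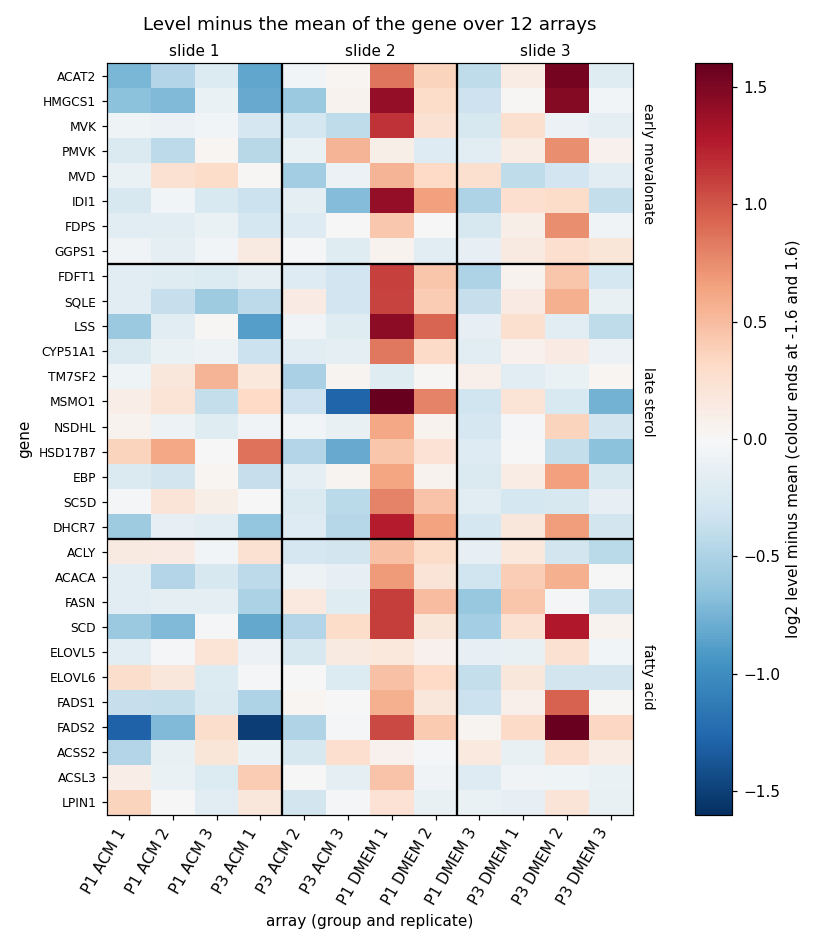
Level of each of the 30 enzymes (rows, in the order of the pathway) on each of the 12 arrays (columns, by slide), as log2 level minus the mean of the gene over the arrays, with black lines between slides and between step groups. P1 DMEM replicate 1 is above the gene's mean for 29 of 30 members, and P1 DMEM replicate 3 for 4 of 30.

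Read as medians over the members, the deviation from the gene's own mean was 0.66 on P1 DMEM replicate 1 and 0.27 on replicate 2, but -0.24 on replicate 3, the array on slide 3. The 3 P1 ACM arrays lay at -0.17, -0.12 and -0.10 and the 3 P3 ACM arrays at -0.28, -0.21 and -0.14. The P3 DMEM arrays lay at 0.12, 0.27 and -0.13. All 6 ACM arrays were thus on the low side, while 1 array of each DMEM group was there too.

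**Figure D2:**
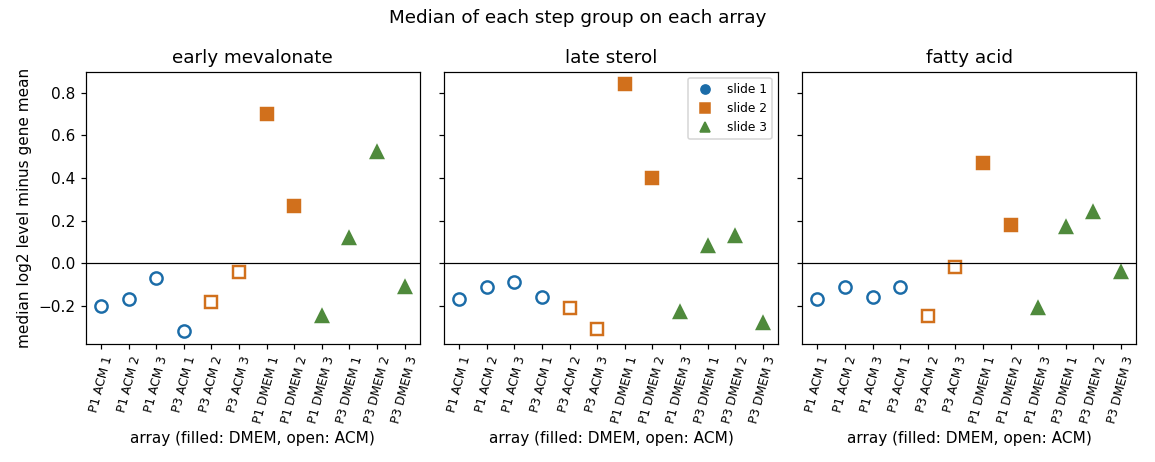
Median of the log2 level minus the gene's mean, for the early mevalonate, late sterol and fatty acid genes, on each array (filled symbols DMEM, open symbols ACM, shape and colour the slide). The 6 ACM arrays lie below 0 in each panel, and the late sterol median of P1 DMEM replicate 1 reaches 0.84.

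The first comparison asked how the enzymes stood after 1 passage in ACM. At P1, 27 of 30 members had a lower mean in ACM than in DMEM, where 36.1% of all genes did, and TM7SF2, HSD17B7 and LPIN1 had a higher one. The median difference (ACM minus DMEM, log2) was -0.38 over the members and 0.15 over all genes; it was -0.34 for early mevalonate, -0.47 for late sterol and -0.20 for fatty acid genes. With limma, 3 members passed an unadjusted p of 0.05 downwards, all of them late sterol genes (LSS, DHCR7 and SQLE), and 0 passed upwards, against 0.906% of all genes downwards and 23.1% upwards. None (0) of the 30 also exceeded 2-fold, which 0.0989% of all genes did downwards and 13.5% upwards. At an adjusted p of 0.05 the call was 0 of all genes (0%), the smallest adjusted p being 0.0953, so that "passed" below means the unadjusted threshold. The ACM and DMEM arrays overlapped for all 30 members, whereas 5.36% of all genes had every ACM array lower and 30.6% every ACM array higher. The split over all genes at P1 depended on the scaling and was less uneven with quantile normalization, by which 28 members were lower and 6 passed downwards. All genes are also not a like background. Of the 31078 kept probes 24719 were well above background on all 12 arrays, as all 30 members were. By the table's labels 29 of 30 were higher in ACM at P1, 2 of them past p of 0.05 (shares of all genes not given here).

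LSS had levels of -0.16, 0.25 and 0.45 in P1 ACM and 1.87, 1.36 and 0.30 in P1 DMEM. The first 2 DMEM arrays stood above all ACM arrays and the third lay among them. The difference was -0.99 ± 0.38 (SE; adjusted p = 0.147, limma). A second, dimmer probe of LSS gave -0.50 ± 0.35 (SE; adjusted p = 0.467, limma), which did not pass at P1 or over both passages. DHCR7, the reductase of the last step to cholesterol, had 0.96, 1.40 and 1.36 in P1 ACM and 2.79, 2.17 and 1.25 in P1 DMEM, again with P1 DMEM replicate 3 inside the ACM range. Its difference was -0.83 ± 0.36 (SE; adjusted p = 0.195, limma). SQLE, squalene epoxidase, the first oxygen-dependent step, had 0.89, 0.68 and 0.49 in P1 ACM and 2.14, 1.46 and 0.68 in P1 DMEM, a difference of -0.74 ± 0.33 (SE; adjusted p = 0.213, limma). EBP, the sterol isomerase, had 1.92, 1.86 and 2.18 in P1 ACM and 2.78, 2.21 and 1.92 in P1 DMEM (difference -0.32, adjusted p = 0.58, limma), which did not pass.

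Among early mevalonate genes, HMGCS1, the synthase that commits acetyl groups to the pathway, had -0.77, -0.82 and -0.22 in P1 ACM and 1.30, 0.19 and -0.44 in P1 DMEM. IDI1, the isomerase of the isoprenoid unit, had 0.19, 0.41 and 0.21 in P1 ACM and 1.86, 1.11 and -0.05 in P1 DMEM. ACAT2, the cytosolic thiolase, had 2.03, 2.29 and 2.54 in P1 ACM and 3.61, 3.11 and 2.35 in P1 DMEM. In these 3 genes the first 2 DMEM arrays exceeded every ACM array and the third did not. The differences were -0.95 ± 0.49 for HMGCS1, -0.70 ± 0.40 for IDI1 and -0.73 ± 0.45 for ACAT2 (SE), with adjusted limma p of 0.281, 0.34 and 0.391. FDPS, which makes farnesyl diphosphate, had 4.11, 4.10 and 4.18 in P1 ACM and 4.71, 4.27 and 4.02 in P1 DMEM, and differed by -0.20 ± 0.24 at P1 (SE; adjusted p = 0.711, limma).

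Among fatty acid genes, FADS2 had 0.97, 1.55 and 2.54 in P1 ACM and 3.32, 2.68 and 2.30 in P1 DMEM, a difference of -1.08 ± 0.51 (SE; adjusted p = 0.241, limma). Here the 2 groups crossed through P1 ACM replicate 3 as well as P1 DMEM replicate 3. SCD, the desaturase that makes oleate, had 0.46, 0.34 and 1.02 against 2.16, 1.24 and 0.51 (difference -0.70, adjusted p = 0.426, limma). ACACA, which makes malonyl-CoA, had 1.37, 1.06 and 1.28 against 2.21, 1.74 and 1.21 (difference -0.48, adjusted p = 0.291, limma). FASN, the synthase of palmitate, had 2.02, 2.03 and 2.03 in P1 ACM and 3.30, 2.68 and 1.59 in P1 DMEM, so that its ACM arrays were nearly level while its DMEM arrays spanned the ACM values (difference -0.50, adjusted p = 0.509, limma). FADS1, the second desaturase of the polyunsaturated series, had 1.53, 1.51 and 1.67 against 2.46, 2.08 and 1.55 (difference -0.46, adjusted p = 0.407, limma).

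**Figure D3:**
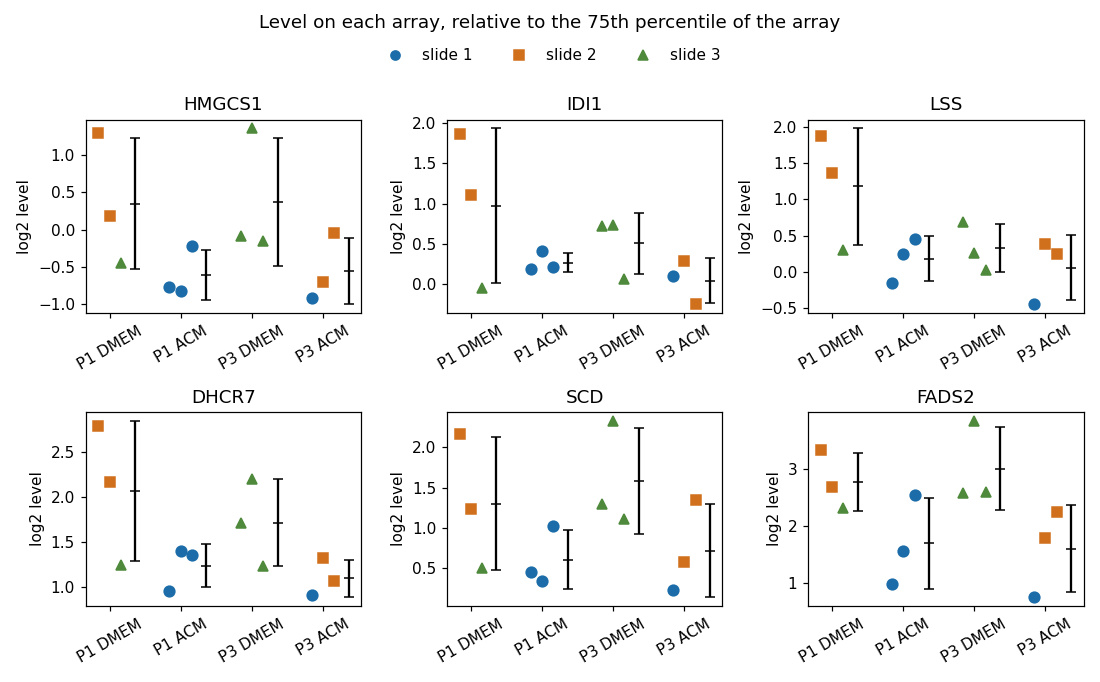
Levels of 6 members on each array (log2, scaled as the levels above), with symbols by slide and the mean ± SD (n = 3) beside each group. P1 DMEM replicate 3, the triangle among the P1 DMEM points, is the lowest of its group in all 6 panels.

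The P1 comparison depended on single arrays, among them every P1 DMEM array and P1 ACM replicate 1. In 25 of 30 members both P1 DMEM arrays of slide 2 were higher than the P1 DMEM array of slide 3, with a median difference of 0.73 between the mean of the former and the latter, where the median over all genes was -0.09. The largest gaps were in IDI1 (1.54), MSMO1 (1.54) and FASN (1.40). Against P1 DMEM replicate 3 alone, the P1 ACM mean was higher in 22 members and lower in 8, with a median of 0.10, and FADS2 showed the largest deficit (-0.61). Without P1 DMEM replicate 3, 16 members passed p of 0.05 downwards at P1 (0.957% of all genes), and without P1 DMEM replicate 1, P1 DMEM replicate 2 or P1 ACM replicate 1, 0 members did. The count was 1 without P1 ACM replicate 2 or P3 DMEM replicate 1, and 5 without P3 DMEM replicate 2. By the table's labels the array of P1 DMEM replicate 3 is P1 DMEM replicate 2, and those of P1 DMEM replicates 1 and 2 are P1 ACM arrays.

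After 3 passages, 24 of 30 members had a lower mean in ACM, where 49.6% of all genes did. The median difference was -0.26 over the members and 0.00 over all genes, with -0.37 for early mevalonate, -0.26 for late sterol and -0.12 for fatty acid genes. With limma 1 member, FADS2, passed p of 0.05 downwards and 0 upwards, against 3.43% and 3.84% of all genes, so the members' share was near the background. FADS2 had 0.75, 1.78 and 2.24 in P3 ACM and 2.57, 3.84 and 2.59 in P3 DMEM, without overlap. Its difference of -1.41 ± 0.51 (SE; adjusted p = 0.668, limma) also exceeded 2-fold, as did 0.819% of all genes downwards. Every ACM array lay below all DMEM arrays in 4 members (13.3%, against 5.02% of all genes), namely MVK, CYP51A1, ACACA and FADS2. The MVK levels were -0.26, -0.27 and -0.40 in P3 ACM and 0.27, -0.08 and -0.15 in P3 DMEM, and the difference did not pass (difference -0.32, adjusted p = 0.79, limma). The call of FADS2 was lost without P3 ACM replicate 1 or P3 DMEM replicate 2, while 3 members passed without P1 DMEM replicate 1, P1 DMEM replicate 3 or P3 ACM replicate 3 and 4 passed without P3 DMEM replicate 3. By the table's labels 19 of 30 were higher in ACM at P3. Past p of 0.05 were 2 members upwards and 1 downwards (shares of all genes not given here).

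FADS2 apart, the genes given array by array at P1 did not pass at P3. HMGCS1 had -0.91, -0.70 and -0.05 in P3 ACM and -0.09, 1.36 and -0.15 in P3 DMEM (difference -0.92 ± 0.49 SE, adjusted p = 0.704, limma). SCD had 0.23, 0.58 and 1.35 against 1.30, 2.33 and 1.11 (difference -0.86, adjusted p = 0.704, limma), and ACACA had 1.11, 1.45 and 1.40 against 1.93, 2.10 and 1.54 (difference -0.54, adjusted p = 0.703, limma). P3 DMEM replicate 2 was the high array of each of these 3 genes. ACAT2, with 1.92, 2.71 and 2.79 against 2.87, 4.28 and 2.56, leaned on the same array, and without it its difference of -0.77 shrank to -0.24. DHCR7 had 0.91, 1.32 and 1.07 against 1.71, 2.20 and 1.24 (difference -0.62, adjusted p = 0.719, limma), LSS differed by -0.26, SQLE by -0.39, IDI1 by -0.46, FDPS by -0.42, EBP by -0.34, FADS1 by -0.51 and FASN by -0.18.

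Averaged over both passages, ACM against DMEM gave 10 members past p of 0.05 downwards and 0 upwards, against 4.47% and 18.6% of all genes. The 10 were ACAT2 and HMGCS1 of the early mevalonate group, SQLE, LSS, CYP51A1 and DHCR7 of the late sterol group, and ACACA, SCD, FADS1 and FADS2 of the fatty acid group. FADS2 had the largest difference, -1.24 ± 0.36 (SE; adjusted p = 0.127, limma), and was the sole member past 2-fold (0.241% of all genes were lower by this rule). A second, dimmer probe of ACACA gave -0.30 ± 0.21 over both passages (SE; adjusted p = 0.415, limma) and did not pass. Members lower in ACM at both passages numbered 22. The count of 10 was 16 without P1 DMEM replicate 3, 5 without P1 ACM replicate 1, and 4 without P1 ACM replicate 2, P1 DMEM replicate 1, P1 DMEM replicate 2, P3 ACM replicate 1 or P3 DMEM replicate 2. By the table's labels 27 of 30 were higher in ACM over both passages, 7 of them past p of 0.05 (shares of all genes not given here). The P1 and P3 differences themselves differed in 0 members (0 in either direction at an unadjusted limma p of 0.05, against 8.26% of all genes).

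Slide 2 was the slide that held both media. Its 2 P3 ACM arrays can be set against its 2 P1 DMEM arrays, a comparison in which medium and passage change together and cannot be told apart. Of the 30 members, 29 were lower in P3 ACM (53.7% of all genes were), PMVK being the exception. With limma 14 members passed p of 0.05 downwards and 0 upwards, against 3.91% and 3.55% of all genes. They were 3 of 8 early mevalonate genes, 8 of 11 late sterol genes and 3 of 11 fatty acid genes. The median difference was -0.70 over the members, -0.95 over the late sterol genes and -0.02 over all genes. Both ACM arrays lay below both DMEM arrays in 21 members (20.3% of all genes). None (0) of all genes passed an adjusted p of 0.05 (smallest 0.0943).

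The late sterol genes led on slide 2. MSMO1 had -2.54 and -3.49 in P3 ACM and -0.55 and -1.41 in P1 DMEM, the largest difference of any member at -2.03 ± 0.43 (SE; adjusted p = 0.362, limma), a fold of 4.1. LSS had 0.38 and 0.24 against 1.87 and 1.36 (difference -1.30, fold 2.47, adjusted p = 0.379, limma), and DHCR7 had 1.32 and 1.07 against 2.79 and 2.17 (difference -1.29, fold 2.44, adjusted p = 0.455, limma). In these 3 genes the ACM arrays lay well below the DMEM arrays. FDFT1, squalene synthase, at the branch point to sterols, differed by -1.02 and SQLE by -0.83. SC5D, the sterol desaturase, differed by -0.95, HSD17B7, a sterol ketoreductase, by -0.98 and CYP51A1, the lanosterol demethylase, by -0.74. All of these passed p of 0.05.

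In the early mevalonate group IDI1 had 0.29 and -0.25 in P3 ACM and 1.86 and 1.11 in P1 DMEM (difference -1.46 ± 0.32 SE, adjusted p = 0.378, limma). MVK differed by -1.05 and MVD, the decarboxylase that follows the kinases, by -0.75, and both passed. HMGCS1 did not (difference -1.12, adjusted p = 0.655, limma), nor did ACAT2 (-0.61) or FDPS (-0.31). Of the fatty acid genes ACLY, which makes cytosolic acetyl-CoA from citrate (-0.66), ACACA (-0.55) and FASN (-0.81) passed, whereas FADS2 (-0.99, adjusted p = 0.68, limma) and SCD (-0.74, adjusted p = 0.711, limma) did not. The fall past both 2-fold and p of 0.05 covered 6 members, MVK, IDI1, FDFT1, LSS, MSMO1 and DHCR7. By this rule 1.16% of all genes were lower. A second, dimmer probe of ACACA also passed both thresholds (-1.18 ± 0.25 SE, adjusted p = 0.362, limma). Without P1 DMEM replicate 1 the count of 14 came to 8. By the table's labels slide 2 holds ACM arrays alone, and the like comparison of P3 ACM with P1 DMEM then falls on slide 3, where 0 members passed in either direction and the median over the members was 0.14 (3.89% of all genes were lower and 1.89% higher).

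**Figure D4:**
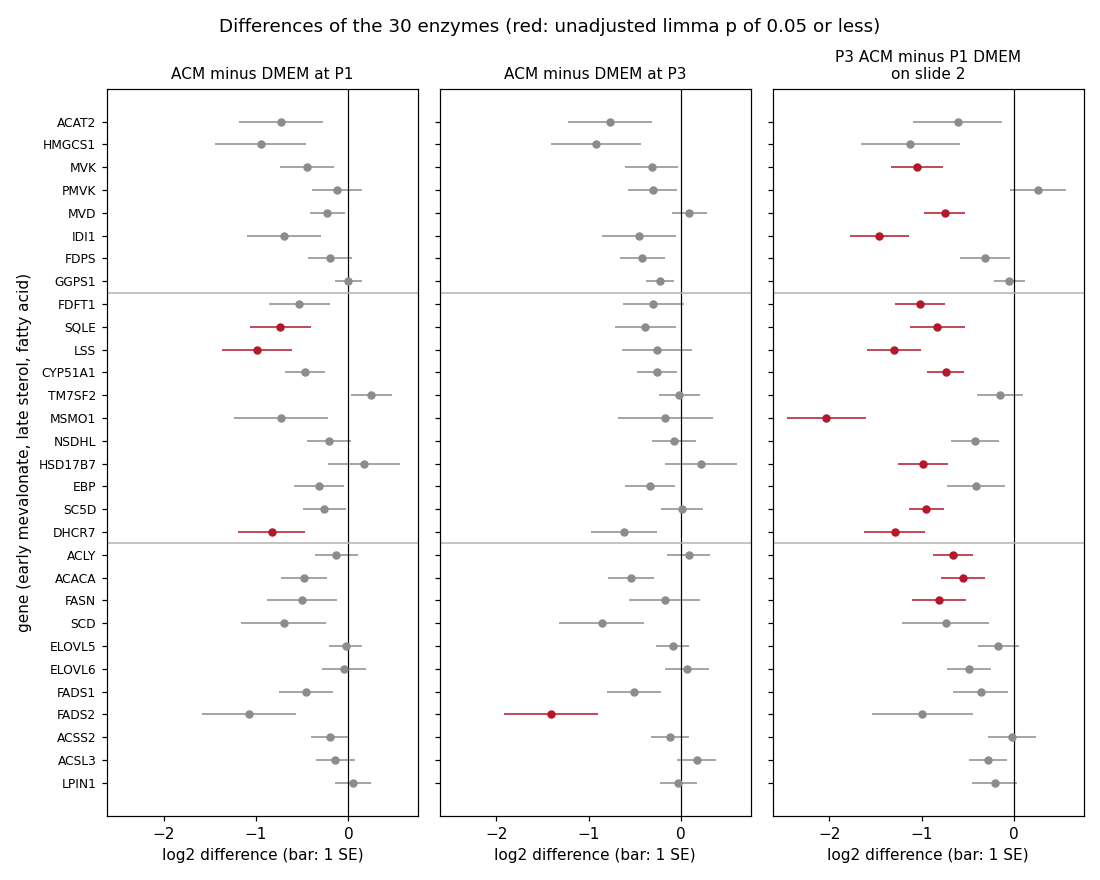
Differences of the 30 members in log2 (points, with bars of 1 SE) for ACM minus DMEM at P1, at P3, and for P3 ACM minus P1 DMEM on slide 2, red where the unadjusted limma p is 0.05 or less. Red points number 3, 1 and 14, all to the left of 0.

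The within-slide values of the other slides concern passage alone. On slide 1 P3 ACM replicate 1 differed from the 3 P1 ACM arrays in 0 members (0.55% of all genes lower, 0.898% higher), with a median of -0.13. On slide 3 the P3 DMEM arrays exceeded P1 DMEM replicate 3 in 24 of 30 members (50.1% of all genes) with a median of 0.31, and ACACA alone passed upwards (0.65 ± 0.28 SE, adjusted p = 0.674, limma), against 2.52% of all genes upwards and 3.93% downwards. A second, dimmer probe of ACACA differed by 0.16 on slide 3. The slide 3 median was 0.50 in the early mevalonate group. Each of these rests on a single array on one side, which is taken to vary like the others. Without P3 DMEM replicate 3, 6 members passed upwards on slide 3, and 0 did without P3 DMEM replicate 2, P1 ACM replicate 2 or P1 ACM replicate 3, whereas on slide 1 a member passed downwards without P1 ACM replicate 1.

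With all slides in the fit, passage in DMEM ran the other way. P3 DMEM was below P1 DMEM in 19 of 30 members (41.3% of all genes), and MVD, LSS and SC5D passed downwards (2.97% of all genes did), with 0 upwards (5.15%). MVD had -2.25, -2.47 and -2.53 in P1 DMEM and -3.20, -3.10 and -2.97 in P3 DMEM, without overlap. The late sterol median was -0.29. The count of 3 came to 12 without P1 DMEM replicate 3 and to 1 without P1 DMEM replicate 1, P1 DMEM replicate 2 or P3 DMEM replicate 2. With slide as a block, which for this comparison leaves the slide 3 values, 1 member passed upwards in place of these. With the labels that the table carries, 15 members were lower and 15 higher, MVD differed by 0.02, LSS by 0.03 and SC5D by 0.04, and GGPS1 alone passed (-0.43). In ACM 0 members differed between P3 and P1 (13.5% of all genes were lower and 0.178% higher), but 2 did without P3 ACM replicate 1 and 1 without P1 ACM replicate 1, and by the table's labels 3 passed downwards (MVD, LSS and ACLY).

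When slide was fitted as a block, 29 of 30 members were lower in ACM at P1, 7 of them past p of 0.05 (2.33% of all genes), and 28 at P3, 14 of them past it (1.87%). None of the calls named above at each passage was kept: at P1 LSS came to -0.67, DHCR7 to -0.96 and SQLE to -0.79, at P3 FADS2 came to -1.69, and none of these passed. The 7 at P1 were IDI1, FDFT1, MSMO1, HSD17B7, SC5D, ACLY and ACSL3. Over both passages 13 members passed (the share of all genes is not given here), and the call of FADS2 was lost there too (-0.87). These estimates join arrays of different slides through single arrays, P3 ACM replicate 1 on slide 1 and P1 DMEM replicate 3 on slide 3, so they share the position of those arrays. At P1 each estimate is the slide 2 difference minus the slide 1 difference, and at P3 the slide 2 difference minus the slide 3 difference. The counts thus reuse the slide 2 comparison, in which medium and passage change together, and are not independent of it. With slide as a random block the counts were 0 at P1 and 7 at P3, for which the shares of all genes are likewise not given.

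Members with little difference are also part of the result. At P1 and P3 GGPS1, the geranylgeranyl diphosphate synthase, differed by 0.00 and -0.23, ELOVL6, an elongase of saturated chains, by -0.05 and 0.06, ACSL3, which activates fatty acids, by -0.14 and 0.17, and LPIN1, a phosphatidate phosphatase, by 0.05 and -0.03. ACSS2, which makes acetyl-CoA from acetate, differed by -0.20 and -0.12, PMVK, the second kinase of the pathway, by -0.12 and -0.31, and NSDHL, a sterol dehydrogenase, by -0.21 and -0.08. TM7SF2, a sterol reductase, differed by 0.25 at P1 and -0.02 at P3. By the scaling used here and without a slide block, none of these passed at either passage or on slide 2 through its brightest probe. A second probe of LPIN1 passed downwards on slide 2 (-0.68 ± 0.25 SE, adjusted p = 0.64, limma). The small differences of GGPS1 depended on the scaling. With quantile normalization it passed downwards at P1 (-0.50) and P3 (-0.37), and by the table's labels it passed upwards at P3 (0.76). ACSL3 passed downwards at P1 with slide as a block (-0.77). ELOVL5, an elongase of polyunsaturated chains, differed by -0.03 at P1 through its brighter probe, but a second, dimmer probe gave 0.66 ± 0.21 (SE; adjusted p = 0.106, limma). The 3 probes of HSD17B7 disagreed in sign at P1 (0.17, 0.15 and -0.26) and were all lower on slide 2 (-0.98, -0.53 and -0.82).

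The genes that control the pathway are not members. SREBF1 had 1.09, 1.09 and 2.07 in P1 ACM and 2.75, 2.03 and 2.53 in P1 DMEM, a difference of -1.01 ± 0.31 (SE; adjusted p = 0.103, limma). At P3 it had 1.20, 1.42 and 1.97 in ACM and 2.87, 2.82 and 2.60 in DMEM, without overlap (difference -1.23, adjusted p = 0.612, limma). INSIG1, itself an SREBP target, had -0.59, -0.55 and -0.78 in P1 ACM and 1.78, 0.46 and -0.26 in P1 DMEM, and all ACM arrays were the lower ones (difference -1.30, adjusted p = 0.111, limma). INSIG1 differed by -0.63 at P3 and by -1.94 on slide 2 (adjusted p = 0.358, limma). SREBF2 differed by -0.26 at P1, -0.14 at P3 and -0.75 on slide 2 (adjusted p = 0.436, limma), and INSIG2 by -0.30, -0.31 and 0.06. Of the 7 control genes, which include SCAP, MBTPS1 and MBTPS2, 2 passed downwards at P1 (SREBF1 and INSIG1, against 0.906% of all genes). At P3 1 did (SREBF1, against 3.43%), and on slide 2 3 did (SREBF2, INSIG1 and MBTPS2, against 3.91%). Upwards 0 passed, against 23.1%, 3.84% and 3.55% of all genes in this order. Under the labels that the table carries, 0 of the 7 passed at P1 or P3, and SREBF1 differed by 0.01 at P1 and 0.71 at P3, INSIG1 by 0.57 and 0.31, SREBF2 by 0.15 and -0.21 and INSIG2 by 0.04 and 0.40. With slide as a block both SREBF1 calls were lost (-0.48 at P1 and -0.93 at P3), whereas INSIG1 passed at P1 (-2.23) and P3 (-2.17) and SREBF2 at P1 (-0.66).

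The remaining genes of these pathways were counted from 2 further lists. Of 15 other genes of the mevalonate branch (dolichol, ubiquinone and prenylation enzymes among them), 0 passed downwards and 3 upwards at P1, 0 in either direction at P3, and 3 downwards on slide 2, one being ERG28, a scaffold of the sterol demethylation enzymes (-0.94, adjusted p = 0.385, limma). Of 28 other fatty acid genes measured, 2 passed downwards and 1 upwards at P1, 2 downwards at P3, and 2 downwards and 1 upwards on slide 2. Over all genes the shares downwards and upwards were 0.906% and 23.1% at P1, 3.43% and 3.84% at P3, and 3.91% and 3.55% on slide 2. The 3 of 15 upwards at P1 (20%) were thus near the share of all genes. The median on slide 2 was -0.17 for the former list and 0.12 for the latter. The difference between these lists and the members was not tested. IDI2 (1.46) and ELOVL3 (1.37) exceeded 2-fold upwards at P1 with p of 0.05 or less. These are dim probes, well above background on 3 of 3 P1 ACM arrays and on 2 of 3 P1 DMEM arrays. Their levels also differed by slide within ACM. IDI2 had -4.12 to -3.64 on slide 1, but -5.91 and -5.96 in P3 ACM on slide 2. ELOVL3 had -4.68 to -3.85 on slide 1, but -5.9 and -4.73 in P3 ACM on slide 2. The part of the slide in these differences was not tested. THRSP was past both thresholds downwards at P3, but only 1 of 3 P3 ACM arrays was well above background, so that the size of its difference was not measured.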

How the data were processed

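RNA of 12 Daoy cultures (4 groups of 3, grouped by their labels) was measured on single-colour arrays. The authors deposited the intensity of each spot after background correction in Agilent Feature Extraction 11.0.1.1, not normalized between arrays, and a table of log2 values for 30569 probes, which was used only under its own column labels, as an alternative. Its column medians were all 9.02, so the columns are level and not centred on 0, and which samples its columns hold stays unknown. The normalization behind it is not given in the sources used here.

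Here 1377 control spots and outlier calls were left out, repeated spots were averaged, and the 75th percentile of each array was subtracted after log2 was taken. A probe was kept (31078 of 34127) where some group had it well above background on all 3 arrays. Accessions were matched to symbols of GRCh38.p14 for 75.5% of probes, the others keeping the name in the files, and a gene was read through its brightest probe. Groups were compared with limma 3.58.1 in R 4.3.3 in 1 fit of 4 group means, two-sided, with Benjamini-Hochberg adjustment over all kept probes. The 8 residual degrees of freedom limit the precision. A second fit took a mean for each group on each slide, and a spot lacking through an outlier call was left out of the fit of its probe (93 kept probes). A gene passed at an unadjusted p of up to 0.05, and the study's own thresholds add a change over 2-fold. The test was first tried on simulated data with independent noise on each array. These held no slide effect, so the trial does not cover the slides of these data.

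The 30 members and all gene lists were chosen with earlier results of these data known. Array values were given for the 3 members of each step group with the smallest p at P1, the 2 with the smallest at P3, and HMGCS1, SQLE, LSS, ACACA, FASN and SCD. Of the other lists SREBF1, SREBF2, INSIG1, INSIG2 and any gene past 2-fold and p at P1 or P3 were named by rule, except that some are not reported here. MVK, MVD, MSMO1, CYP51A1 and other members were described after their values were seen, as was ERG28.

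Samples that share a replicate number deviated from their groups with correlations of 0.43, 0.19 and 0.27 at P1. At P3 the correlations were 0.23, -0.19 and 0.06. Samples of different number were not compared in this way, so whether the numbers pair the samples was not shown. The main fit did not use the numbers. As alternatives the values were quantile normalized, without or with normexp (offset 50), or taken from the authors' table, filters and probe rules were changed, the fit was limited to the arrays compared or replaced by the methods' t-test, the replicate number or the slide entered as a block, and arrays were left out singly. The comparison on slide 3 by the table's labels and the alternatives for the control genes were added after seeing the data. Figures were drawn with matplotlib 3.10.9.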

Additional observations from a re-analysis of the deposited data

How the results depend on the processing

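Under the table's labels the P1 medians were 0.44 (early mevalonate), 0.44 (late sterol) and 0.33 (fatty acid) and the P3 medians 0.21, 0.05 and 0.06, with 3 members past p of 0.05 at P3, 1 for the difference between passages, 1 between passages in DMEM and 3 in ACM. The 13 genes named by rule turned to 0.76 (ACAT2), 0.98 (HMGCS1), 0.64 (IDI1), 0.27 (FDPS), 0.58 (SQLE), 0.97 (LSS), 0.36 (EBP), 0.69 (DHCR7), 0.33 (ACACA), 0.66 (FASN), 0.87 (SCD), 0.46 (FADS1) and 0.85 (FADS2) at P1. At P3 they turned, except FASN, to 0.69 (ACAT2), 0.78 (HMGCS1), 0.05 (IDI1), 0.04 (FDPS), 0.49 (SQLE), 0.02 (LSS), 0.07 (EBP), 0.23 (DHCR7), 0.35 (ACACA), 0.64 (SCD), 0.50 (FADS1) and 0.86 (FADS2). Which labels hold was not tested beyond this.

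Under the scanner labels the counts of members past p of 0.05 moved as follows. Quantile normalization, with or without normexp, gave 6 at P1 and 2 at P3 and 1 between passages in ACM, and without normexp 2 on slide 3. At P1 it also moved the split over all genes from 23.1% higher and 0.906% lower to 11.1% and 4.85%. The filter on all 12 arrays gave 2 at P3, the methods' t-test 0 at P1 and 1 between passages in ACM (it has no form for the difference between passages), and only the arrays compared 1 between passages in DMEM. Slide as a block gave 7 at P1, 14 at P3 and 1 between passages in DMEM, with P3 medians of -1.06, -0.94 and -0.74, and slide as a random block 0 at P1, 7 at P3, 1 between passages in DMEM and a late sterol P3 median of -0.54. The causes were not tested. With the replicate block, which treats equal numbers as pairs, the counts were 4 at P1, 1 at P3 and 10 over both passages. This block changed no count by over 1.5 times.

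When arrays were left out singly the counts ranged from 0 to 16 at P1, 0 to 4 at P3, 4 to 16 over both passages, 0 to 1 for the difference between passages, 1 to 12 between passages in DMEM, 0 to 2 in ACM, 0 to 1 on slide 1, 8 to 17 on slide 2 and 0 to 6 on slide 3. The early, late and fatty acid medians ranged from -0.57 to -0.11, -0.71 to -0.16 and -0.36 to -0.11 at P1, and from -0.51 to -0.22, -0.41 to -0.10 and -0.20 to -0.01 at P3. Of the 13 genes named by rule, 13 moved by over 1.5 times at P1 (12 without P1 DMEM replicate 1, 8 without P1 DMEM replicate 3, 1 without P1 ACM replicate 1) and 10 at P3 (8 without P3 DMEM replicate 2, 3 each without P3 DMEM replicate 3 or P3 ACM replicate 1, 2 each without P3 DMEM replicate 1 or P3 ACM replicate 2). At P1, IDI1 ranged from -1.21 to -0.26, FASN from -0.97 to -0.11 and FDPS from -0.36 to -0.02, and at P3 HMGCS1 ranged from -1.18 to -0.43. FASN at P3 alone changed sign, from -0.38 without P3 DMEM replicate 3 to 0.03 without P3 DMEM replicate 1. Slide 3 could not be compared without P1 DMEM replicate 3, nor slide 1 without P3 ACM replicate 1. Every member was well above background on all 12 arrays, but the signal of some was low. TM7SF2 had levels of -4.87 to -3.81 and GGPS1 of -3.91 to -3.45.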
